A study of Rattus norvegicus with 15 samples.

Results

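Myc encodes a transcription factor of the basic helix-loop-helix leucine-zipper family. Its protein binds E-box DNA as a dimer with MAX and raises or lowers many genes of growth, ribosome production and metabolism. The Myc messenger RNA and its protein are both short-lived, and the protein is modified on several lysines by acetyltransferases such as p300 and GCN5. Fibroblasts that carry extra MYC are a classical model of cell transformation. The study substituted single lysines of MYC and asked, per its title, what these acetylated residues do in transformation and in the choice of regulated genes.

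The gene described here is the rat Myc locus, listed as ENSRNOG00000004500, which is 1 of the 32545 genes in the deposited count tables and 1 of the 13676 that passed the filter on low counts. It was picked by its identifier, not by its values. RNA came from Rat1a, an established rat fibroblast line (the labels also call the cells primary), made into stable lines that each carried 1 of 5 constructs. The MYC lines expressed mouse MYC with K149R (line R149), K158R (line R158) or K323R (line R323), or mouse MYC of wild-type sequence (line WT), and the control line carried the empty vector (EV). In these names K is lysine and R the arginine put in its place, which keeps the charge but cannot be acetylated. All lines grew attached in high-glucose medium with serum, and each gave 3 biological replicates, 15 libraries in all. The labels name 1 stable line per construct, so replicates differ only as cultures do, and what belongs to the line and what to its construct cannot be told apart. The vector and its promoter were not given in the sources used here.

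The introduced gene is mouse and the tables count reads on rat genes, so a count on rat Myc mixes RNA of the cell's own gene with transgene RNA that was similar enough to be placed there. These tables hold 1 number per gene, with no exon or base of the transcript, and the 2 sources cannot be separated in them. The EV libraries hold the cell's own gene alone. The share of mouse transcripts that was placed on the rat gene is unknown, and a level in a MYC line may therefore lie below the total. The counts cannot show which substitution a library carries. In bulk RNA, more RNA per cell and more cells that carry the construct cannot be told apart.

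Libraries held between 13303631 (R158 replicate 1) and 108933235 (R149 replicate 3) counts in genes. In the RefSeq annotation of a later assembly, GRCr8, Pvt1, a long noncoding RNA, is the only one of the 3 genes on either side of Myc that carries a proper name. No identifier other than that of Myc could be paired with a symbol, so MAX, the enzymes that acetylate MYC, its known target genes and fibroblast markers could not be looked up. At an equal number of counts drawn from each library, 13697 genes were detected in R149 replicate 1 and 14859, 15056 and 15076 in the first replicates of WT, R158 and R323, against 15296 to 15635 in the other 11. By chi-square of the counts between replicates, per degree of freedom, the first replicate was the least like the other two in R149, R323, WT and EV. In R158 it was replicate 2, with 50.7 and 52.6 against 20.8 between the other two. Comparisons are given with all libraries and with replicates 2 and 3 alone, and those of R158 and EV also without R158 replicate 2 or EV replicate 1.

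Myc was read far more often in every library with a MYC construct than in any EV library. Levels are CPM, a count divided by its library's total and put on 1 common scale. TMM factors (trimmed mean of M values) corrected the totals for differences in make-up. The R149 libraries held 8603, 8532 and 19430 Myc counts, which correspond to 243, 196 and 182 CPM in replicates 1, 2 and 3. The R158 libraries held 2713, 3172 and 2563 counts, or 213, 112 and 148.9 CPM. These were the lowest levels among the MYC lines, although replicate 1 of R158 lay above 2 of the R149 libraries.

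The R323 libraries held 5542, 8030 and 5569 counts, or 312, 234 and 264 CPM. The WT libraries held 8570, 8240 and 7573 counts, or 233, 243 and 322.8 CPM. R323 and WT thus covered nearly the same range. The EV libraries held 217, 786 and 355 counts, or 10.95, 17.2 and 19.1 CPM. The lowest MYC library, R158 replicate 2, stood at 112 CPM and the highest EV library at 19.1 CPM, so the groups did not overlap, as held for 11.8% of the tested genes in this direction. Without TMM factors, R158 replicate 2 had 108 CPM with an exact Poisson 95% interval of 104 to 112, and EV replicate 1 had 11.3 CPM with an interval of 9.86 to 12.9. The EV libraries had the widest such intervals relative to their level, and these cover counting error only.

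**Figure D1:**
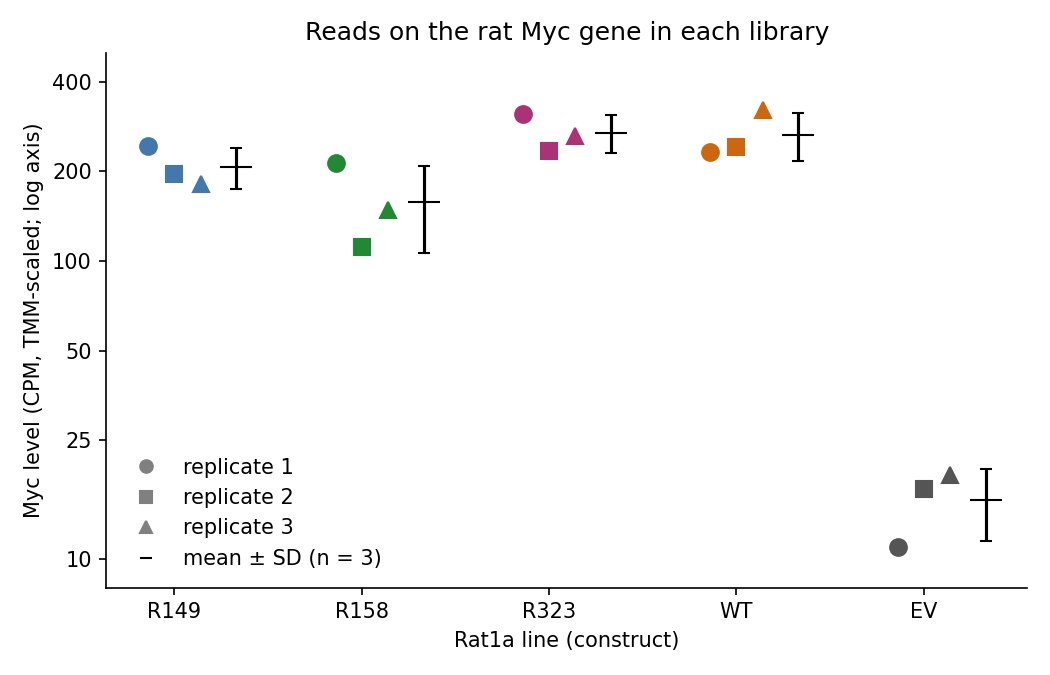
Myc level in each of the 15 libraries, in CPM with TMM scaling on a log axis, by line. Symbols give the replicate number and black bars the mean and SD of 3 libraries. The 12 MYC libraries sit between 112 and 322.8 CPM and the 3 EV libraries between 10.95 and 19.1 CPM.

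The lines fell in the order R323, WT, R149, R158 and EV from highest to lowest mean. The mean level was 270.1 ± 39.6 CPM in R323 and 266 ± 49.2 CPM in WT, a pair whose difference is a small part of either SD (SD, n = 3 each). R149 averaged 207 ± 32.2 CPM and R158 averaged 157.98 ± 51.2 CPM, and the EV line averaged 15.7 ± 4.24 CPM (SD, n = 3 each). Neighbours in this order above EV were within the spread of their replicates, since the libraries of R323 and WT overlapped, as did those of R149 and WT and those of R149 and R158. The step from R158 down to EV was the only one between neighbours without overlap, and R158 lay wholly above EV for 21.6% of the tested genes. The EV mean was 5.82% of the R323 level, 5.91% of the WT level, 7.59% of the R149 level and 9.95% of the R158 level. If the cell's own gene were expressed in every line as in EV, these would be its shares of the reads on Myc, and whether it was so expressed was not tested. Above the EV mean, R149 gained 191 CPM, R158 142 CPM, R323 254 CPM and WT 250.5 CPM. The gain in R149 was 76.4% of that in WT, the gain in R158 56.8% and the gain in R323 102%.

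Counting error was small beside the spread between cultures. The coefficient of variation that counting alone gives was at most 1.98% in a MYC library and 6.79% in an EV library. The coefficient of variation between replicates was 15.5% in R149, 32.4% in R158, 14.6% in R323, 18.5% in WT and 27.0% in EV. The highest R158 library had 1.91 times the Myc level of the lowest, and the same ratio was 1.34 in R149, 1.33 in R323, 1.38 in WT and 1.74 in EV. The pooled SD of log2 CPM within lines was 0.33 for Myc, against a median of 0.21 over the tested genes, and 74.2% of the tested genes had a smaller one. By this pooled SD, Myc was among the more variable genes between cultures of 1 line. By line, its SD was 0.47 in R158 and 0.42 in EV, but 0.22 in R149, 0.21 in R323 and 0.26 in WT.

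The comparison of each MYC line with EV asked how far the reads on Myc in that line lay above EV, which also checks the labels of the lines. Differences were tested with edgeR's quasi-likelihood fit over all 15 libraries, and a gene was called at a Benjamini-Hochberg adjusted p below 0.05 over the 13676 genes tested. Myc was called higher in 4 of the 4 lines, and no library went against its label in this check. Genes called higher made up 18.2% of those tested for R149, 14.4% for R158, 14.1% for R323 and 12.6% for WT, each against EV. The 4 comparisons share the EV libraries and are not independent of each other.

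Myc in R149 was 13.1-fold higher than in EV, with a 95% interval of 9.04 to 19.1. On the log2 scale the rise was 3.72 ± 0.25 (SE), and edgeR put its adjusted p at 1.8e-07. In R158, Myc was 10.0-fold higher than in EV, with an interval of 6.92 to 14.5, the smallest of the 4 estimates. On the log2 scale it was 3.32 ± 0.25 (edgeR adjusted p 1.1e-06). In R323, Myc was 17.1-fold higher than in EV, with an interval of 11.7 to 25.1. On the log2 scale it was 4.10 ± 0.26 (edgeR adjusted p 1.3e-07).

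In WT, Myc was 16.9-fold higher than in EV, with an interval of 11.6 to 24.7. On the log2 scale it was 4.08 ± 0.26 (edgeR adjusted p 1.0e-07). An exact two-sided permutation test of log2 CPM gave p = 0.1 for each line against EV, the smallest that 3 libraries against 3 allow. Over all 12 MYC libraries against the 3 EV libraries, the difference in mean log2 CPM was 3.82 and the exact two-sided permutation p was 0.0022, the smallest of 455 arrangements. Those 12 libraries come from 4 lines and are not 12 independent introductions of the construct. The average of the 4 lines stood 13.96-fold above EV in the edgeR fit, with an interval of 9.86 to 19.8 and an adjusted p of 2.3e-08, in a comparison that called 20.0% of the tested genes higher.

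The calls did not rest on the first replicates. With replicates 2 and 3 alone, the log2 fold change against EV was 3.38 in R149, 2.84 in R158, 3.78 in R323 and 3.96 in WT, and each was called by edgeR, with a largest adjusted p of 4.2e-06 in R158. The average of the 4 lines then stood at 3.49, with an edgeR adjusted p of 1.4e-07. Without EV replicate 1 alone it stood at 3.60, and without R158 replicate 2 alone R158 stood at 3.52 above EV, with edgeR adjusted p of 3.4e-07 and 1.4e-06. By line, without EV replicate 1, the log2 fold change was 3.51 in R149, 3.12 in R158, 3.90 in R323 and 3.88 in WT. Each was called by edgeR, with a largest adjusted p of 7.4e-06 in R158. The lower values have a counterpart in the libraries: EV replicate 1 was the lowest EV library, while replicate 1 was the highest in R149, R158 and R323. In WT, replicate 1 was the lowest and replicate 3 the highest. Between libraries of equal number, which the labels do not tie to a shared day, R149 exceeded EV by 4.47, 3.51 and 3.25 on the log2 scale in replicates 1, 2 and 3, R158 by 4.27, 2.70 and 2.96, R323 by 4.83, 3.76 and 3.79, and WT by 4.405, 3.82 and 4.08. Without R149 replicate 1 alone, the log2 fold change of R149 against EV was 3.57 with an edgeR adjusted p of 9.0e-07.

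**Figure D2:**
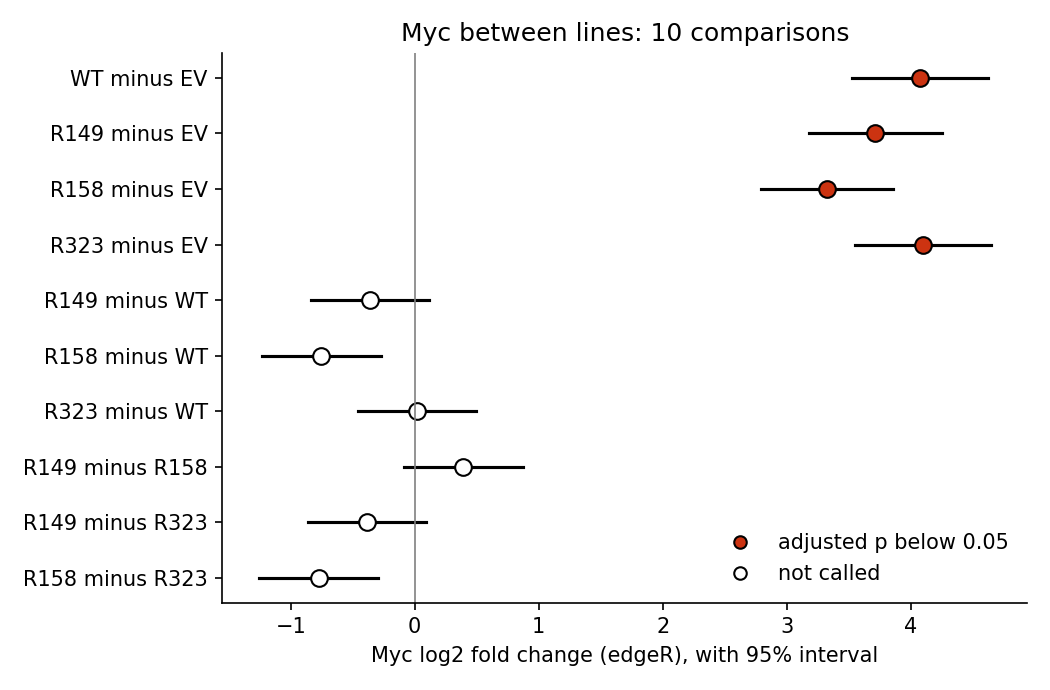
Log2 fold change of Myc in each of the 10 comparisons between lines, with 95% intervals from the edgeR fit. Filled points passed the adjusted p threshold of 0.05. The 4 comparisons with EV lie between 3.32 and 4.10, and the 6 among MYC lines lie between -0.78 and 0.39, none of them called.

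The rise of Myc was among the larger ones in every comparison with EV. By log2 fold change it ranked 23rd highest of 13676 genes in R149, 33rd in R158, 18th in R323 and 31st in WT. By p-value it ranked 14th in R149, 9th in R158, 6th in R323 and 7th in WT. The 99th percentile of log2 fold changes over all tested genes was 1.59 in R149, 1.65 in R158, 1.68 in R323 and 1.77 in WT. The median over all tested genes lay between 0.00 and 0.01, near the 0 on which TMM scaling centres each comparison. These are differences between lines for the same gene and not levels compared between genes.

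**Figure D3:**
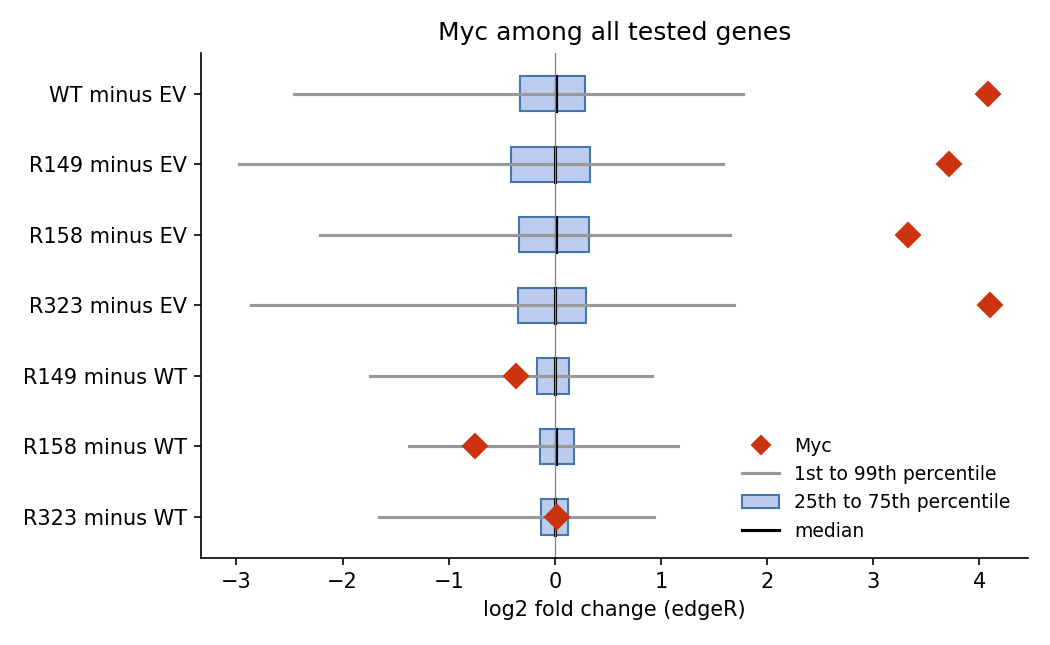
Log2 fold change of Myc (diamonds) beside all 13676 tested genes in the 4 comparisons with EV and the 3 with WT. Boxes span the 25th to the 75th percentile, the black bar is the median and lines run from the 1st to the 99th percentile. Myc lies beyond the 99th percentile in each comparison with EV and inside the plotted lines in each comparison with WT.

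The size of the Myc rise and the number of genes called against EV did not share 1 order across the lines. R149 had the third highest Myc level and the most genes called, 5264 or 38.5% of those tested. R323, with the highest Myc level, had 4076 (29.8%), R158, with the lowest, had 3892 (28.5%), and WT had 3661 (26.8%). All 4 counts use the same EV libraries, and with 4 lines no relation was tested. R149 also held the deepest library, replicate 3 with 108933235 counts. Its replicate 1 had the fewest genes detected at equal counts, 13697. Whether such differences between libraries bear on the number of genes called was not tested.

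The comparison of each mutant line with WT asked whether the mutant lines had the same level of reads on rat Myc as the WT line. By edgeR 0 of 3 were called, with an unadjusted p below 0.05 in 1 of them, R158, and DESeq2 called 0 as well. Genes called in either direction by edgeR made up 1.18% of those tested for R149 against WT, 0.600% for R158 and 0.892% for R323. These shares are of the fit of all 15 libraries, and those under the alternatives are not given here. Myc in R323 and WT stood at a log2 difference of 0.02 ± 0.22 (SE), for which edgeR gave an adjusted p of 0.996. The 95% interval of the ratio ran from 0.730 to 1.41. The sign of this small difference turned in 4 of 24 alternatives, to -0.19 with replicates 2 and 3 alone.

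Myc in R149 was at 0.778 times the WT level, with a 95% interval of 0.559 to 1.08. The log2 difference was -0.36 ± 0.22 with an edgeR adjusted p of 0.603, and the exact two-sided permutation p was 0.3. By replicate number, R149 differed from WT by 0.06, -0.31 and -0.83 on the log2 scale. The R149 libraries covered 182 to 243 CPM and the WT libraries 233 to 322.8 CPM, so R149 replicate 1 lay within the WT range and the other R149 libraries below it. With replicates 2 and 3 alone the log2 difference was -0.59 and was called, with an edgeR adjusted p of 0.0448. Without R149 replicate 1 alone it was -0.51 with an adjusted p of 0.502.

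Myc in R158 was at 0.593 times the WT level, with a 95% interval of 0.425 to 0.827 before any adjustment for the number of genes. The log2 difference was -0.75 ± 0.23, the unadjusted p 0.0043 and the edgeR adjusted p 0.207. All 3 R158 libraries, at 112 to 213 CPM, lay below all 3 WT libraries, at 233 to 322.8 CPM, and the exact two-sided permutation p of 0.1 was the smallest possible. Genes whose R158 libraries all lay below the WT libraries made up 5.87% of those tested. By replicate number, R158 differed from WT by -0.13, -1.12 and -1.12 on the log2 scale. With replicates 2 and 3 alone the log2 difference was -1.12 and was called, with an edgeR adjusted p of 0.0029. Without R158 replicate 2, the lowest library, it was -0.56 with an adjusted p of 0.695. Over the 24 alternatives the adjusted p ranged from 0.0029 to 0.715, and the call passed in that 1 alternative only.

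The SE of Myc set what could be called. At the p-value of the last gene called in each comparison, a difference of 1.95-fold for R149, 2.07-fold for R158 and 2.00-fold for R323 against WT would have been needed for Myc with its SE. The interval of R158 against WT, which reaches from 0.425 to 0.827, holds ratios that such a test would have missed. That no mutant was called does not show that the lines held equal amounts of Myc RNA.

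The comparisons among the mutant lines asked the same of these 3 lines. Again 0 of 3 were called by edgeR, where genes called in either direction made up 1.27% for R149 against R158, 1.07% for R149 against R323 and 0.936% for R158 against R323. The unadjusted p was below 0.05 in 1 of the 3, R158 against R323, and DESeq2 called that same 1. The share of all tested genes called by DESeq2, or by edgeR with fewer libraries, is not given here. In it, Myc was at 0.584 times the R323 level, with a 95% interval of 0.419 to 0.815, an unadjusted p of 0.0036 and an edgeR adjusted p of 0.126. The 3 R158 libraries, at 112 to 213 CPM, lay below the 3 R323 libraries, at 234 to 312 CPM, as did those of 9.16% of the tested genes. The log2 difference was -0.78 ± 0.23, and DESeq2 put its adjusted p at 0.0293. With replicates 2 and 3 alone it was -0.93, and without R158 replicate 1 alone it was -1.06, with edgeR adjusted p of 0.0079 and 0.0411. Without R158 replicate 2 alone it was -0.58 with an adjusted p of 0.572. R158 was the lower line in 3 of 3 pairs of equal number, by -0.55, -1.06 and -0.83 on the log2 scale.

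R149 stood between the others. Against R158 it was at 1.31 times the Myc level, with a 95% interval of 0.942 to 1.83 and an edgeR adjusted p of 0.656, and it was higher in 3 of 3 pairs of equal number. Against R323 it was at 0.767 times the level, with an interval of 0.551 to 1.07 and an edgeR adjusted p of 0.533, and it was lower in 3 of 3 pairs. The libraries overlapped in both comparisons. With replicates 2 and 3 alone the log2 difference was 0.54 from R158 and -0.40 from R323, with edgeR adjusted p of 0.101 and 0.186, and without R158 replicate 2 alone it was 0.20 from R158, with an adjusted p of 0.954. The means of the 4 MYC lines spanned 0.81 on the log2 scale, against a median span of 0.31 over the tested genes, and 87.0% of the tested genes had a smaller one. The Myc means of the MYC lines were thus further apart than those of most genes, and so were its replicates by the SD pooled over all lines.

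**Figure D4:**
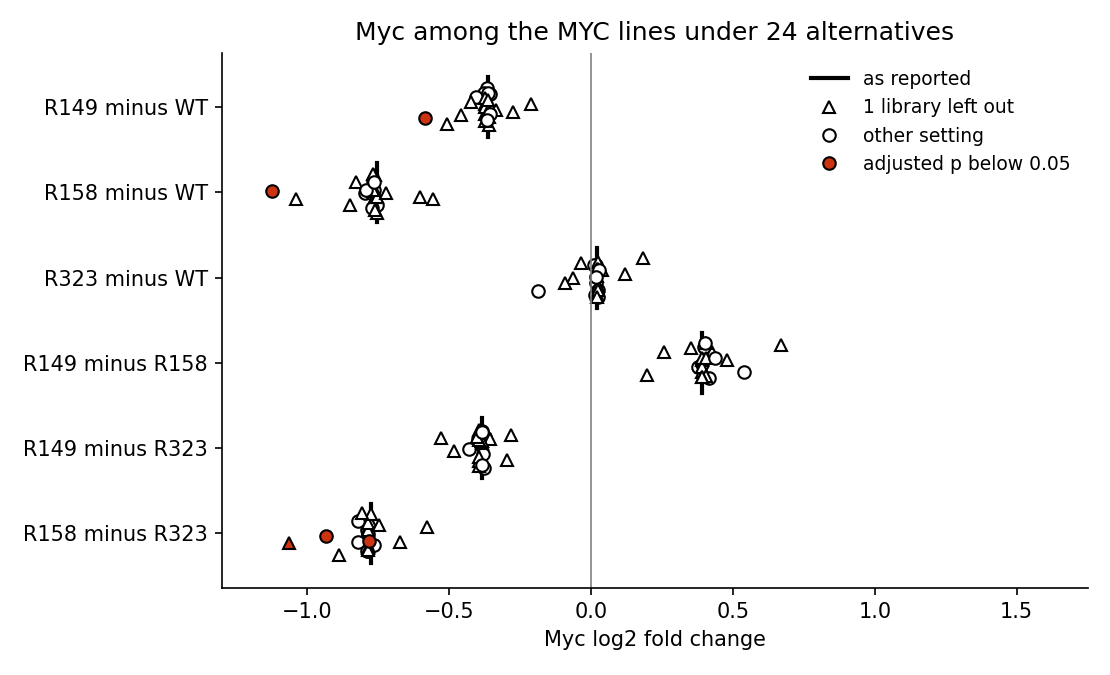
Log2 fold change of Myc in the 6 comparisons among MYC lines, as reported (black bars) and under 24 alternatives (triangles with 1 library left out, circles for other settings). Filled symbols were called at an adjusted p below 0.05. R158 lies below WT and below R323 under every alternative plotted, while the call passes in 1 and 3 of the 24.

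To see which genes ran with Myc, its log2 CPM was set beside that of 12023 other genes with a mean of at least 1 CPM. Pearson's r over the 15 libraries was at least 0.9 for 159 genes and at most -0.9 for 155, with a median of 0.02. The EV libraries form a cluster of their own at low Myc, so a high r over 15 libraries mostly marks a gene that differs between EV and the MYC lines. Over the 12 MYC libraries alone r was at least 0.9 for 16 genes and at most -0.9 for 25, and 0 and 1 of these also passed that limit over the 15. A library's value for Myc and for any other gene share its depth and scaling, and over the 12 MYC libraries r between Myc and the log2 of the total count was -0.18. All of these correlations are descriptions and carry no test.

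The highest r belonged to ENSRNOG00000013064, with 0.97 over 15 libraries and 0.65 over the 12 MYC libraries. It averaged 83.8 ± 4.91 CPM in R149, 81.1 ± 3.74 CPM in R158, 83.6 ± 1.18 in R323, 86.8 ± 3.00 in WT and 60.5 ± 1.13 in EV (SD, n = 3 each). It thus rose much less than Myc, by a log2 fold change of 0.42 in R158 to 0.52 in WT, and its replicates were far closer to each other. The next was ENSRNOG00000010121, with an r of 0.97 over 15 libraries and 0.70 over the 12 MYC libraries. It averaged 4.20 ± 0.491 CPM in R149, 2.69 ± 0.668 CPM in R158, 4.52 ± 0.701 in R323, 4.33 ± 0.300 in WT and 0.785 ± 0.121 in EV. Its counts were low, at 13, 41 and 15 in EV and 42, 56 and 48 in R158, against 66 to 444 in the other MYC libraries. As with Myc, R158 had the lowest mean of the MYC lines. Its R158 libraries, at 3.30, 1.97 and 2.79 CPM, all lay below the 9 libraries of the other MYC lines. For Myc, the R158 libraries did not. The share of all tested genes with such a separation is not given here, and this gene was picked for its likeness to Myc over these same libraries. For ENSRNOG00000010121, the log2 difference of R158 from WT was -0.72 ± 0.22 with an edgeR adjusted p of 0.211, which was not called.

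The most opposite patterns were those of ENSRNOG00000029912, with an r of -0.97 over 15 libraries and -0.48 over the 12 MYC libraries, and of ENSRNOG00000013641, with -0.97 and -0.77. ENSRNOG00000029912 stood at 8.07 ± 1.79 CPM in R149, 8.73 ± 0.853 in R158, 7.77 ± 0.170 in R323, 7.72 ± 1.34 in WT and 24.6 ± 2.73 in EV (SD, n = 3 each). ENSRNOG00000013641 stood at 0.818 ± 0.0757 CPM in R149, 1.19 ± 0.582 in R158, 0.707 ± 0.336 in R323, 0.524 ± 0.0485 in WT and 6.81 ± 1.45 in EV. Its means in R149, R323 and WT were below the limit of 1 CPM, which it passed through its EV level. The MYC libraries held only 6 to 82 counts of ENSRNOG00000013641, against 109 to 280 in EV. Its r over the 12 MYC libraries and its differences among MYC lines thus rest on values near the floor. All 4 genes were called by edgeR against EV in every MYC line, with a largest adjusted p of 0.0023, and none of the 4 was called in any comparison among the MYC lines. They were picked for this pattern, so these calls describe them and support nothing. What these genes are is not given in the sources used here.

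**Figure D5:**
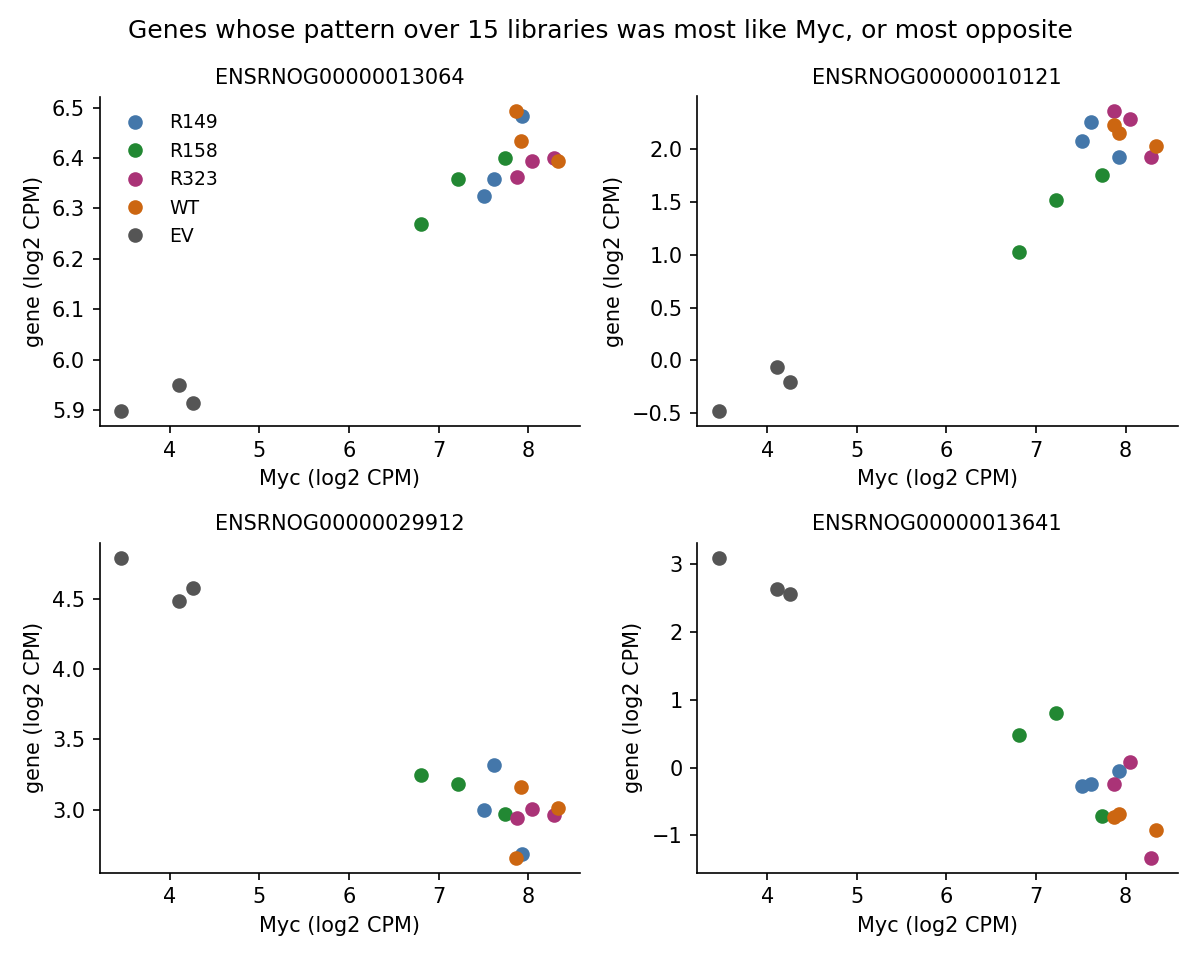
Log2 CPM of the 2 genes with the highest and the 2 with the lowest Pearson r with Myc, plotted against the log2 CPM of Myc, 1 point per library coloured by line. In each panel the 3 EV libraries lie apart at low Myc, and the 12 MYC libraries form a second cluster between 6.81 and 8.33 on the Myc axis.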

How the data were processed

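Stranded mRNA libraries (dUTP kit, per the labels' protocols) of 15 Rat1a cultures were analysed. The deposited values are raw counts per Ensembl gene, 1 table per library. TopHat2 2.1.0 and Rnor_6.0 appear in the submitters' processing notes as tool and build. How reads were counted, with which strand setting and annotation, and what was done with reads that match several places is not given in the sources used here, so reads on Myc that also match a related gene may have been dropped or split. No sequence is printed because the reference tables held none for Myc, and no coordinate because they are of another assembly (GRCr8).

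The test was edgeR 4.0.16 (R 4.3.3), with filterByExpr at a minimum of 10 counts, TMM factors and 1 quasi-likelihood fit of line over 15 libraries. The code was tested on simulated data. SE is the log2 fold change divided by the square root of F. Log2 CPM used a prior count of 2. Genes named beside Myc were the 2 with the highest and the 2 with the lowest Pearson r with it, among genes averaging at least 1 CPM. The gene, the rules and 5 lists of related genes were chosen with earlier results of these data known, and the lists could not be run because 0 other identifiers carried a symbol. Alternatives included DESeq2 1.42.0 and limma 3.58.1. No replicates agreed within counting noise (chi-square per degree of freedom 4.49 to 88.9).

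Replicate numbers come from the labels, which state no shared day. Over all tested genes, deviations from the line means correlated by more than 0.1 in every pair of equal number in 6 of 10 comparisons, those among MYC lines (r from 0.13 to 0.54).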

Additional observations from a re-analysis of the deposited data

How the results depend on the processing

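Each comparison was repeated under 24 alternatives: other scaling factors, no filter, DESeq2, limma-voom, fewer libraries in the fit, a replicate block, replicates 2 and 3 alone, and each library left out. All comparisons with EV stayed called, with log2 fold changes of 3.88 to 4.22 in WT, 3.38 to 3.85 in R149, 2.84 to 3.52 in R158 and 3.78 to 4.25 in R323. The permutation test of 12 against 3 libraries, repeated under alternatives chosen after seeing the data, gave an exact p of at most 0.0222. Each p was the smallest its arrangements allow, so its size reflects only the number of libraries kept. Those 12 libraries come from 4 lines and are not independent introductions of the construct. Among MYC lines, replicates 2 and 3 alone gave -0.59 for R149 against WT, -1.12 for R158 against WT and -0.93 for R158 against R323, all 3 newly called, and -0.19 for R323 against WT, opposite in sign to the reported 0.02. DESeq2 newly called R158 against R323 (-0.78). The share of all tested genes called under these alternatives is not given here, so whether the calls of Myc stand out there cannot be told. With 1 library left out, R323 against WT ranged from -0.091 to 0.18 and R158 against R323 from -1.06 to -0.58, where only the fit without R158 replicate 1 was called. The cause of these shifts was not tested. R158 against WT ranged from -1.04 to -0.56 with 1 library left out and was never called. The replicate block changed no call, with -0.78 for R158 against WT (edgeR adjusted p 0.0803) and -0.79 for R158 against R323 (0.0543). Counting depth limits EV most, where Myc had 217 to 786 counts.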
